A study of Mus musculus with 6 samples.

Results

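Sprouty and Spred genes encode inhibitors that restrain signalling from receptor tyrosine kinases to RAS and ERK, and 6 of them were followed here by symbol (Spry1, Spry2, Spry4, Spred1, Spred2 and Spred3), out of 53346 gene symbols in the files. Polyadenylated RNA came from mouse glioma cells, labelled as astrocytes. Per the labels the cells are Ink4a/Arf-/- with PDGFRa and PDGF-A, and all samples share this genotype. They differ in the dose of SHP099, an allosteric inhibitor of the tyrosine phosphatase SHP-2, at 0, 5 or 10 µM. Each dose has 2 files, for lanes 6 and 7, whose sample names are the same up to the lane. They were therefore read as repeat runs of 1 library that show sequencing error only, which makes n = 1 per dose. The labels do not state this in words. The labels used here do not give the length of treatment, the vehicle, the promoter behind the introduced genes or whether the cells are 1 clone.

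Sprouty proteins are made when ERK is active and feed back on the same route. Their cysteine-rich C-terminal domain takes them to the membrane. Spry2 is known to bind the adaptor GRB2 and the ubiquitin ligase CBL, and SHP-2 can dephosphorylate Sprouty proteins on tyrosine. Spred proteins share the cysteine-rich domain and add an N-terminal Ena/VASP homology domain, by which SPRED1 brings the RAS GTPase-activating protein neurofibromin to the membrane. In humans, germline loss of SPRED1 causes Legius syndrome, which resembles neurofibromatosis. RNA of Spry2 and Spry4 is commonly used as a report of ERK activity.

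The start regions of the Spred genes are shown first, because Spred1 and Spred2 had lower RNA levels under SHP099 and Spred3 did not. They are the 250 bases before the RefSeq gene start (build GRCm38.p6), read 5′ to 3′ on the gene's strand. The Spred1 window is chr2:117120821-117121070 (plus strand), the Spred2 window chr11:19924192-19924441 (plus strand) and the Spred3 window chr7:29168648-29168897 (minus strand). Capitals mark GGGCGG, the core bound by Sp1-type factors, and TGACGT, a partial site of the cyclic AMP response element, on either strand.
Spred1: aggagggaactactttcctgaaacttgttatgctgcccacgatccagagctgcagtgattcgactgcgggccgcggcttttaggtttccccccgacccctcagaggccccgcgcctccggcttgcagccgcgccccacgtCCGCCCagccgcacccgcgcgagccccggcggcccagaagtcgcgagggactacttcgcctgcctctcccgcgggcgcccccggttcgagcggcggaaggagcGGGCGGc
Spred2: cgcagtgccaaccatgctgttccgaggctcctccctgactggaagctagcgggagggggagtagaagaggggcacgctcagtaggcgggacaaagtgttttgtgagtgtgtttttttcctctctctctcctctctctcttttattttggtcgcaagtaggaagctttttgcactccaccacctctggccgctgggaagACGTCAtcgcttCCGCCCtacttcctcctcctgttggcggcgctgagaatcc
Spred3: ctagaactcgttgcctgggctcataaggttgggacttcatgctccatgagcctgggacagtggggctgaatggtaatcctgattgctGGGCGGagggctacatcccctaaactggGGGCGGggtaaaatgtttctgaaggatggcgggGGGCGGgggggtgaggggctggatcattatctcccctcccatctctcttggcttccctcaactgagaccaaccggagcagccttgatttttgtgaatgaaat

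RefSeq windows matched 5 of the 6 members by symbol, all but Spry4. GGGCGG began 110 and 7 bases before the start of Spred1, 40 bases before that of Spred2, 163, 135 and 102 bases before that of Spred3 and 60 bases before that of Spry1, and 32.7% of 32851 windows of this length hold it. Of these 5 windows TGACGT was found in that of Spred2, 52 bases before the start, against 6.47% of all windows. The letters CCGGAA, a common form of ETS factor site, were in none of the 5 windows and in 12.0% of all windows. The same held for the AP-1 site TGANTCA (6.75% of all windows), the E-box CACGTG (6.02%) and the CArG box of serum response factor (1.47%). For ETS factors only the exact letters CCGGAA were searched, so these windows may hold other forms of their sites. Spred1 had the highest content of G and C, 70.8%, with 31 CG dinucleotides, followed by Spry1 and Spry2 with 62.4% and 23 each. Spred2 (56%, 12 CG dinucleotides) and Spred3 (55.6%, 6) lay nearer the median window, which had 52.4% and 6. A matching motif describes the letters only and is not evidence of binding.

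The authors deposited FPKM, in which a gene's fragments are divided by transcript length and by the depth of the file. Low FPKM values fall on steps of 1 fragment, and the spacing of these steps gave the depth. It ranged from 30820000 fragments (both lanes of 10 µM) to 47120000 (lane 7 of 0 µM). A gene was compared when its mean reached 1 FPKM in at least 1 dose, which 12567 genes did. It was called higher or lower when its mean log2(FPKM + 1) differed by at least 1.5-fold (0.585 on the log2 scale) and all 4 differences between a lane of each dose had the same sign. Each fold is followed by its lowest and highest value over the 4 lane pairs. No p-value can be given between doses. In bulk RNA, fewer cells of a type and less RNA per cell cannot be told apart.

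The cells had little RNA of mature astrocytes. Of 8 astrocyte markers, Slc1a3 and Sox9 reached 1 FPKM, Aqp4 was listed at 0 in every file and Gfap did not pass 0.0527 FPKM. The summed level of the 8 was 19.3 to 21.2 FPKM over all files. Markers of microglia summed to 0.0636 to 0.199 FPKM, of endothelium to 0.0749 to 0.260 FPKM and of oligodendrocytes to 0.546 to 1.05 FPKM. Of 4 neuronal markers only Tubb3 reached 1 FPKM. The 4 proliferation markers Mki67, Top2a, Ccnb1 and Cdk1 moved with dose. Their sum was 555 and 552 FPKM in the lanes of 0 µM, 108 and 97.0 FPKM at 5 µM and 53.1 and 54.1 FPKM at 10 µM. Of 4 glial progenitor and mesenchymal markers, 2 moved with dose as well. The neural stem cell filament gene Nes averaged 19.0, 5.49 and 4.97 FPKM at 0, 5 and 10 µM, and the stem cell factor gene Sox2 38.7, 18.6 and 16.2 FPKM, and both were called lower at 5 and at 10 µM against 0 µM. Vim, the vimentin filament gene, averaged 1358, 1816 and 1625 FPKM and was not called, and Olig2 was listed at 0 in every file. The part of proliferation and of these markers in the levels below was not tested. Ptpn11, which encodes SHP-2, averaged 59.0, 58.4 and 57.7 FPKM at 0, 5 and 10 µM.

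Spry4, Spred1 and Spred2 fell between 0 and 10 µM SHP099, and Spry2 and Spred3 were not called. Thus 3 of the 5 members compared were lower and 0 higher, beside 19.1% of all genes compared that were lower and 15.7% that were higher. The members' median log2 fold was −0.72 and that of all genes −0.03. Spry1, the sixth member, stayed under 1 FPKM and was not compared. These counts describe the members and support nothing about the family, since the members were picked with earlier results of these data known.

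**Figure D1:**
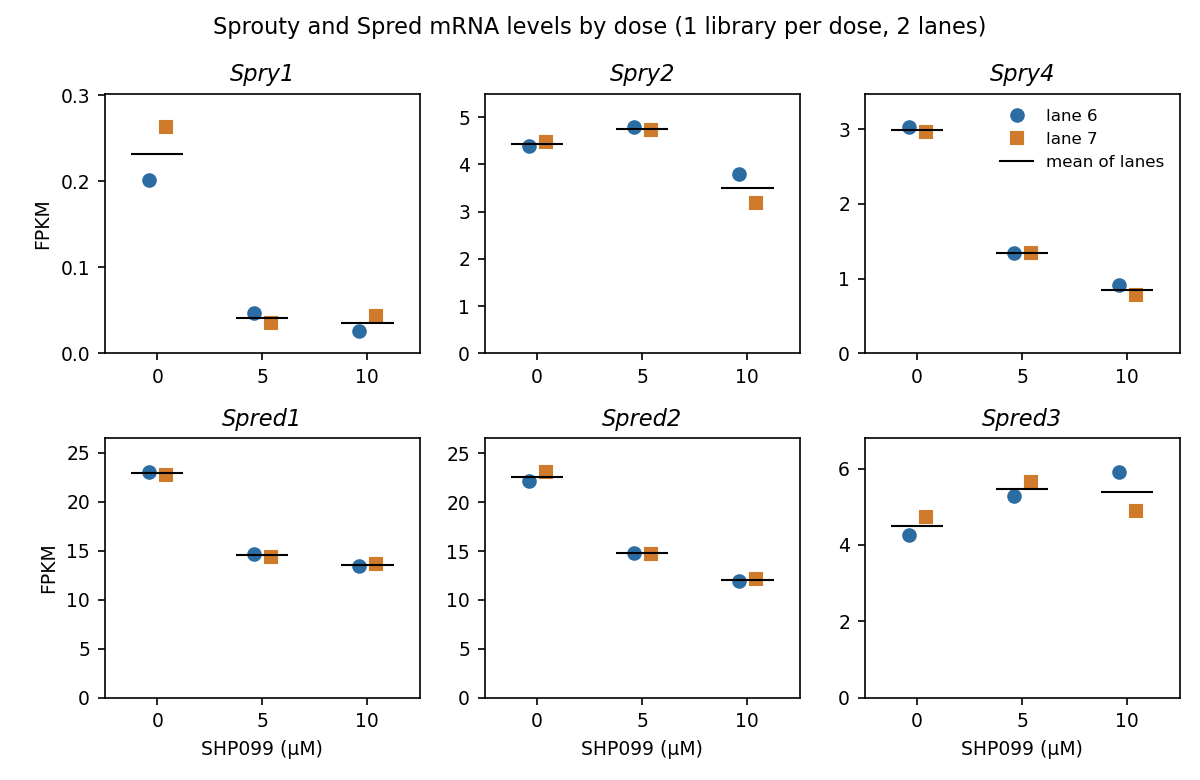
FPKM (y axis, from 0, with its own scale for each gene) of the 6 members at 0, 5 and 10 µM SHP099 (x axis); circles are lane 6, squares lane 7, and lines the mean of the lanes of 1 library. Spry4 steps from 2.997 to 1.35 and 0.848 FPKM and Spred1 and Spred2 lie lower at both treated doses, whereas Spred3 lies between 4.25 and 5.91 FPKM throughout.

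Spry4 was the Sprouty gene called lower for 10 against 0 µM. It was listed at 3.03 FPKM in lane 6 and 2.97 FPKM in lane 7 at 0 µM, at 1.35 FPKM in both lanes at 5 µM, and at 0.913 and 0.784 FPKM at 10 µM. The doses do not overlap and each step of dose is lower. Its log2 fold was −1.11 (−1.17 to −1.05) for 10 against 0 µM, lower than all but 6.30% of the genes compared. As a plain ratio of mean FPKM, with no pseudocount, the level at 0 µM was 3.53 times that at 10 µM. Spry4 has 1 annotated transcript (4755 bases), for which these values correspond to 1272 fragments at 0 µM, 465 at 5 µM and 236 at 10 µM, lanes summed. The exact Poisson 95% interval at 10 µM is 0.743 to 0.963 FPKM, and it covers counting error only, as do all intervals here. With a pseudocount of 5 FPKM, above the gene's own level, the fold was −0.45 and Spry4 was no longer called.

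Spry2 was the most abundant Sprouty gene at every dose and was not called in any comparison. Its levels were 4.39 and 4.47 FPKM at 0 µM, 4.79 and 4.72 FPKM at 5 µM and 3.80 and 3.19 FPKM at 10 µM. Both lanes at 10 µM lie below all others, and the lanes at 5 µM lie above those at 0 µM. The log2 fold was −0.28 (−0.39 to −0.17) for 10 against 0 µM, 0.08 (0.07 to 0.10) for 5 against 0 µM and −0.36 (−0.47 to −0.25) for 10 against 5 µM. The lanes at 10 µM differed from each other by 0.20 on the log2 scale, where the median gene differed by 0.06. Its annotated transcript (2087 bases) received 770, 672 and 398 fragments at 0, 5 and 10 µM.

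Spry1 was near the limit of detection. It was listed at 0.201 and 0.263 FPKM at 0 µM, 0.0473 and 0.0354 FPKM at 5 µM and 0.0257 and 0.0436 FPKM at 10 µM. Both lanes at 0 µM lie above all treated lanes, which overlap between 5 and 10 µM. Depending on which of its 3 transcripts (2451 to 2773 bases) is taken, this is 48 to 55 fragments at 0 µM, 7 to 8 at 5 µM and 5 at 10 µM. The ratio of 0 to 10 µM was 6.30 (95% counting interval 2.52 to 20.3) for the shortest transcript and 7.21 (2.91 to 23.1) for the longest. On the log2(FPKM + 1) scale the same difference was −0.25, since the pseudocount exceeds the level. A gene model on the opposite strand, Gm42922, shares 710 bases of Spry1 exons and was at most 0.00572 FPKM on average in any dose. Spry3, a paralogue outside the 6 members, was listed at 0 in all 6 files, and no fold is given for it.

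Within the Sprouty genes the share of Spry4 fell and that of Spry2 rose, a measure taken within each file that does not depend on scaling between files. The level of Spry2 itself averaged 4.43, 4.75 and 3.49 FPKM at 0, 5 and 10 µM, so its larger share at 10 µM is not a higher level. Spry2 made up 57.7% and 58.1% of the summed Spry1, Spry2 and Spry4 FPKM in the lanes of 0 µM. Its share was 77.5% and 77.4% with 5 µM, and 80.2% and 79.4% with 10 µM. For Spry4 the share was 39.7% and 38.5% at 0 µM, then 21.8% and 22.1% (5 µM) and 19.3% and 19.5% (10 µM). Most of this shift was present at 5 µM, and the lanes of 0 µM lie apart from all treated lanes. The summed level of the Sprouty genes was 7.66, 6.14 and 4.38 FPKM at 0, 5 and 10 µM, with a log2 fold of −0.69 (−0.80 to −0.59) for 10 against 0 µM. That call was lost with files scaled to equal sums (−0.50) and with a pseudocount of 5 FPKM (−0.43).

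**Figure D2:**
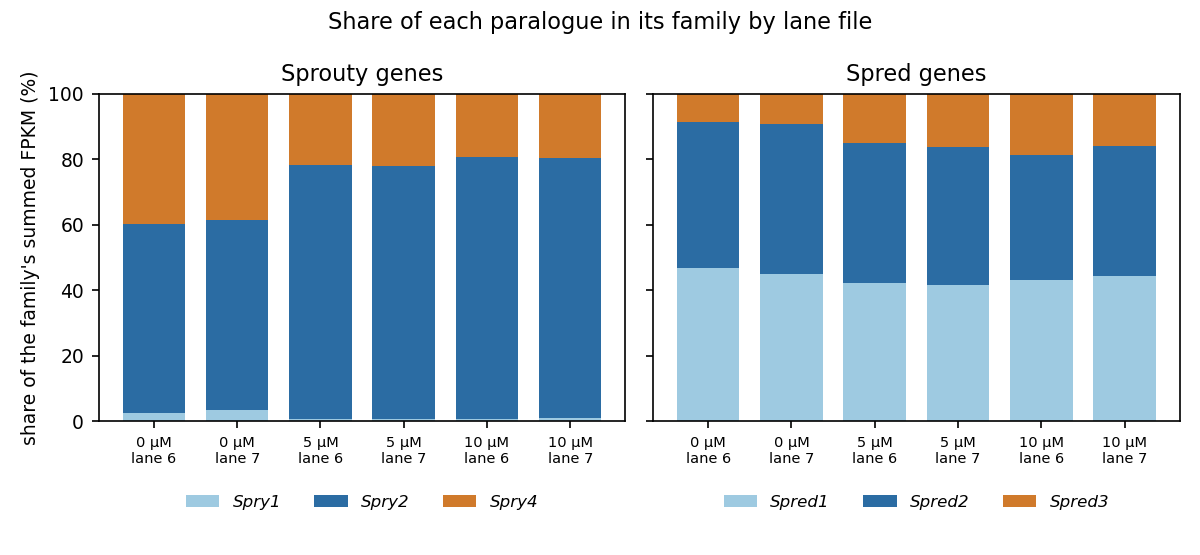
Share (percent, y axis from 0) of each paralogue in the summed FPKM of its family, 1 bar per lane file (x axis, dose and lane). The share of Spry2 in the Sprouty sum rises from 57.9% to 79.8% on average between 0 and 10 µM, and that of Spred3 in the Spred sum from 8.99% to 17.4%.

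The Spred genes were the more abundant family, at a summed 49.998 FPKM at 0 µM, 34.8 FPKM at 5 µM and 31.0 FPKM at 10 µM. Spred1 was at 23.1 and 22.8 FPKM at 0 µM, 14.7 and 14.4 FPKM at 5 µM and 13.5 and 13.6 FPKM at 10 µM. The untreated lanes stand well above the rest, and the treated doses differ by about 1 FPKM. The log2 fold was −0.72 (−0.74 to −0.70) for 10 against 0 µM and −0.62 (−0.64 to −0.60) for 5 against 0 µM, both called, and −0.10 (−0.12 to −0.08) for 10 against 5 µM. With equal sums these became −0.51 and −0.45, and neither was called. That scaling moves the median of all genes to 0.16 and 0.13, from −0.03 for both comparisons.

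Spred2, which also binds neurofibromin in other cells, differed between all doses. Its levels were 22.1 and 23.1 FPKM at 0 µM, 14.8 and 14.7 FPKM at 5 µM and 11.9 and 12.2 FPKM at 10 µM. No lanes of different doses overlap. The log2 fold was −0.85 (−0.90 to −0.81) for 10 against 0 µM, which was called under every scaling and pseudocount tried. For 5 against 0 µM it was −0.581 (−0.61 to −0.55), just short of the 1.5-fold rule. Without the lane 6 file of 0 µM it was −0.61 and called, as it was in the lane 7 files alone (−0.61), with trimmed mean scaling (−0.61), with a pseudocount of 0.1 FPKM (−0.61) and with none (−0.61). For 10 against 5 µM it was −0.27 (−0.29 to −0.26), lower than in all but 6.97% of genes.

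Spred3, which is known to lack a functional KIT-binding region found in its relatives, went against the other Spred genes without being called. It was listed at 4.25 and 4.74 FPKM at 0 µM, 5.28 and 5.65 FPKM at 5 µM and 5.91 and 4.88 FPKM at 10 µM. All treated lanes lie above both untreated lanes, and the treated doses overlap. The log2 fold was 0.22 (0.03 to 0.40) for 10 against 0 µM and 0.23 (0.13 to 0.34) for 5 against 0 µM. Its lanes differed more than those of any other member compared at each dose, by 0.13, 0.08 and 0.23 on the log2 scale. Spred3 shares 202 exon bases with Ggn on the opposite strand, a gene at 0.595, 0.725 and 0.704 FPKM, and without strand these reads cannot be told apart. In the Spred sum it had a share of 8.61% and 9.37% untreated, of 15.2% and 16.2% with 5 µM and of 18.9% and 15.9% with 10 µM.

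**Figure D3:**
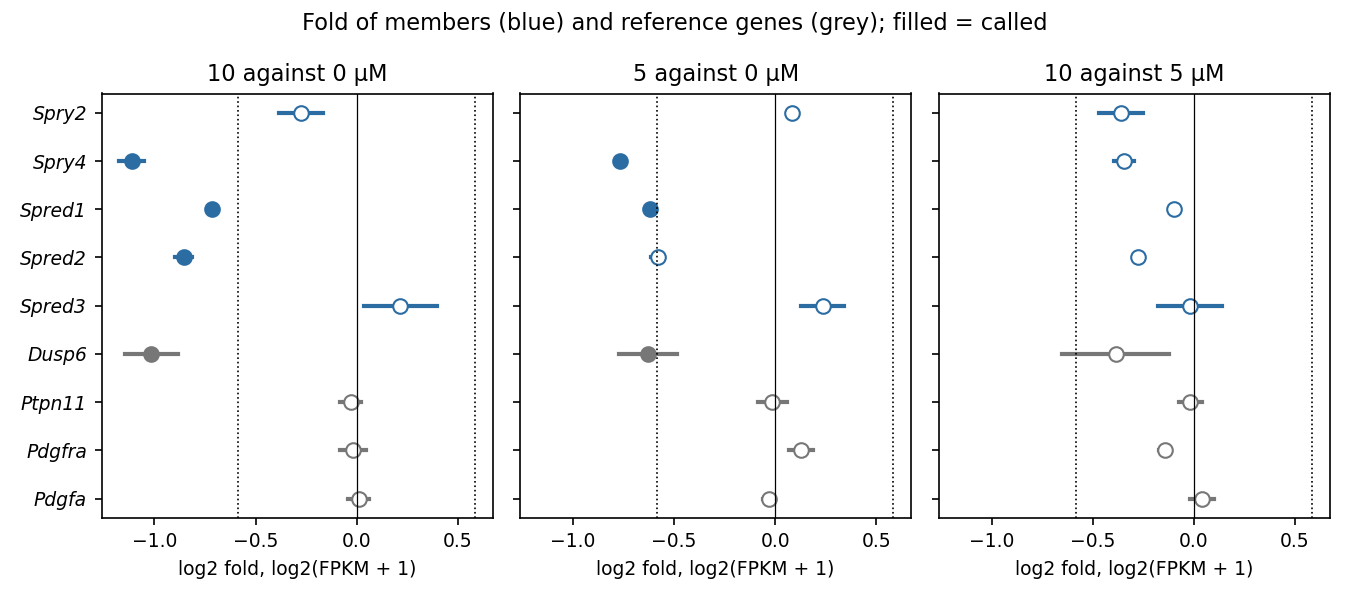
Log2 fold on log2(FPKM + 1) (x axis) of the 5 members compared (blue) and of the reference genes Dusp6, Ptpn11, Pdgfra and Pdgfa (grey) in each comparison. Bars span the 4 lane pairs, filled points are called, and dotted lines mark 1.5-fold; Spry4, Spred1 and Spred2 are filled for 10 against 0 µM.

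At 5 µM, Spry4 and Spred1 were already called lower, so 2 of 5 members were lower and 0 higher, beside 16.8% of all genes lower and 14.1% higher. The log2 fold of Spry4 was −0.77 (−0.78 to −0.76). Between 5 and 10 µM no member was called, beside 1.35% of genes lower and 0.414% higher. Spry4 was at −0.34 (−0.40 to −0.29) in that comparison, but at −0.67 and called with no pseudocount, an alternative chosen after seeing the data. The 5 and 10 µM comparisons share the 0 µM library, so their values are given side by side and not as independent results.

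**Figure D4:**
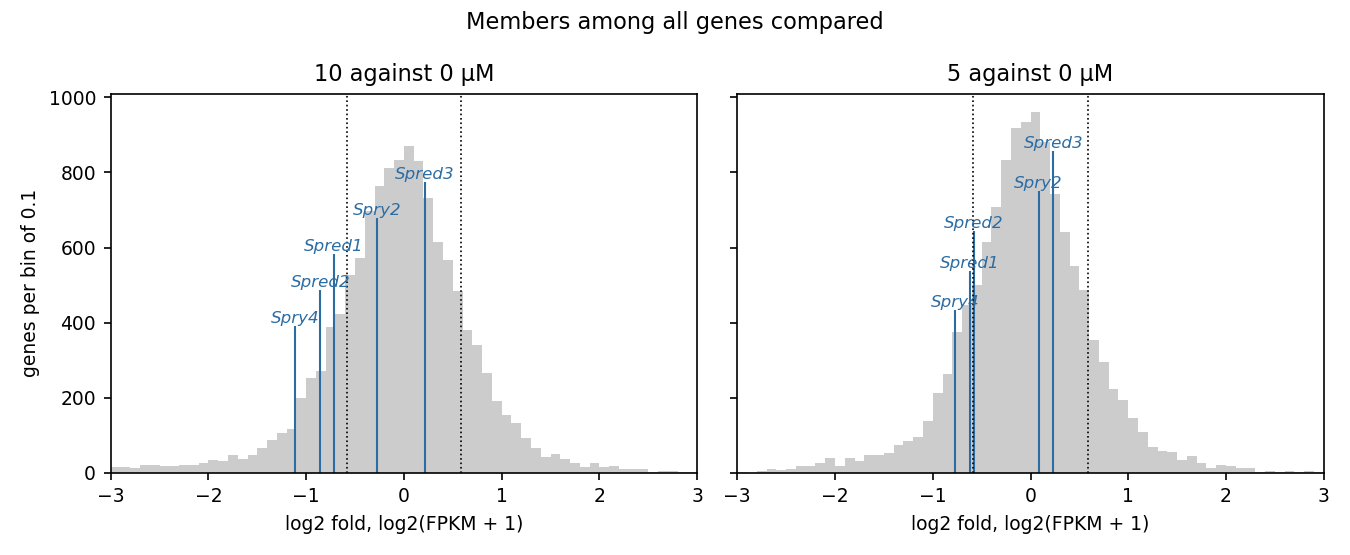
Number of genes (y axis) per bin of 0.1 in log2 fold (x axis) among 12567 genes compared, with the 5 members as blue lines whose heights carry no value; dotted lines mark 1.5-fold. For 10 against 0 µM, Spry4 at −1.11 lies in the lower tail, and Spred3 at 0.22 lies above 66.6% of genes.

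FPKM are scaled per length, so the members' levels were set side by side. The lengths used are not given. Annotated transcripts run from 1440 to 6016 bases for Spred1, from 745 to 4449 for Spred2 and from 374 to 4056 for Spred3. The order of close levels may therefore depend on the lengths used. At 0 µM the order was Spred1 (22.9 FPKM), Spred2 (22.6), Spred3 (4.50), Spry2 (4.43), Spry4 (2.997) and Spry1 (0.232). Spred1 and Spred2 overlapped between lanes there, as did Spred3 and Spry2. At 5 µM Spred2 (14.8 FPKM) stood before Spred1 (14.6 FPKM), but their 95% counting intervals overlap even for the longest transcripts (14.3 to 15.2 FPKM and 14.2 to 14.9 FPKM). At 10 µM the order was Spred1 (13.5 FPKM), Spred2 (12.0), Spred3 (5.40), Spry2 (3.49), Spry4 (0.848) and Spry1 (0.0346), and no neighbours overlapped. Spred1 lay above 62.3% of the genes compared at 0 µM and above 50.03% at 10 µM, and Spry4 above 18.3% and 2.44%.

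Genes with the profile most like each member were found among 9423 named genes of at least 5 FPKM, as the Euclidean distance between log2(FPKM + 1) values centred on each gene's mean over the 6 lane files. The files hold 3 libraries, so likeness rests on 3 doses. Nearest to Spry4 were Tm4sf1, a tetraspanin-like membrane protein (distance 0.0668), the annexin Anxa2 (0.0782) and Actn1, an alpha-actinin (0.0910). Anxa2 fell from 752 to 358 FPKM between 0 and 10 µM. This likeness holds on the log2(FPKM + 1) scale, where 1 FPKM is added to a member at 0.848 to 2.997 FPKM but to genes far above it. As plain ratios of mean FPKM at 0 to 10 µM, Spry4 was at 3.53, and Tm4sf1, Anxa2 and Actn1 were at 2.12, 2.1 and 2.06. Nearest to Spred1 were the receptor phosphatase Ptpre (0.0418), Klhdc4 (0.0461) and Rdx, the membrane linker radixin (0.0463). Nearest to Spred2 were the ribosomal protein genes Rps14 (0.0571) and Rpl41 (0.0581) and Trim28, a corepressor (0.0703). Nearest to Spry2 were Anapc13, of the anaphase-promoting complex (0.1001), the FGF receptor Fgfr1 (0.103) and the kinase Sik2 (0.111). Fgfr1 averaged 157, 161 and 126 FPKM at 0, 5 and 10 µM and was not called. Nearest to Spred3 were Endov (0.0928), the selenoprotein gene Selenok (0.0970) and Whrn (0.1002).

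Other genes of the pathway came in 5 lists with 64 genes, of which 61 were compared, and 18 were lower and 8 higher at 10 against 0 µM, where 19.1% of all genes compared were lower and 15.7% higher. Other feedback inhibitors had 7 of 17 compared genes lower and 1 higher, and their median fold was −0.50 on the log2 scale. Dusp9, an ERK phosphatase, was at 6.70 and 6.89 FPKM at 0 µM and 1.34 and 1.67 FPKM at 10 µM and fell by 1.64. The cytokine signalling inhibitor Socs3 (−1.41) and the ERK phosphatases Dusp4 (−1.38) and Dusp6 (−1.02) fell as well. Flrt3, a membrane protein that in frogs promotes FGF signalling and was listed here as a feedback gene, rose from 2.41 and 2.38 FPKM to 8.81 and 9.15 FPKM (1.55).

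Of 8 reporters of ERK activity, 6 were lower and 1 higher, with a median of −1.20. Among all genes compared 19.1% were lower and 15.7% higher, with a median of −0.03. Dusp4 and Dusp6 are in this list and the previous. The ETS factor genes Etv4 (−3.82) and Etv5 (−2.01) and the cyclin D1 gene Ccnd1 (−1.53) had folds further below 0 than Spry4 on the log2(FPKM + 1) scale. For Ccnd1 this order turned with no pseudocount, at −1.54 against −1.82 for Spry4, and with one of 0.1 FPKM, at −1.54 against −1.71. Epha4, an ephrin receptor named after its value was seen, rose from 3.29 and 3.64 FPKM to 8.32 and 8.35 FPKM (1.06). Between 5 and 10 µM, where no member was called, Etv4 (−0.82), Ccnd1 (−0.75) and Etv5 (−0.70) fell further, beside 1.35% of all genes compared. This contrast depends on the pseudocount. With 5 FPKM, Etv4 (−0.29) and Etv5 (−0.35) were not called, and with 0.1 FPKM (−0.61) or none (−0.67) Spry4 was called.

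The list drawn up for binding partners of Sprouty or Spred, in which direct binding is not claimed for every gene, had 3 of 19 compared genes higher and 2 lower. Its median was 0.05. The share that was higher was near the 15.7% of all genes, and the share that was lower did not exceed their 19.1%. The RAF kinase Braf (0.87), the adaptor Gab1 (0.68) and the kinase Mknk1 (0.59, named after its value was seen) rose. Cav1, caveolin-1, which binds Sprouty proteins, fell from 411 and 417 FPKM to 237 and 225 FPKM (−0.84), and the RAS GTPase-activating protein gene Rasa1 fell (−0.74). Nf1, which encodes the Spred partner neurofibromin, was not called (−0.24), nor was Grb2 (0.05) or Sos1 (0.02). Kit was listed at 0. These 4 genes were named after their values were seen. With equal sums this list had 6 higher and 1 lower. That scaling moves the median of all genes to 0.16, from −0.03. Of all genes compared, 1574 were then lower, against 2396 as reported. The shares of 15.7% and 19.1% are therefore no background for the counts with equal sums. With a pseudocount of 5 FPKM the list had 1 higher, where 1029 of all genes compared were higher, against 1978 as reported.

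Beside 19.1% of all genes compared that were lower and their median of −0.03, 3 of 8 genes listed for Sprouty protein turnover were lower, with a median of −0.37. They were Egln3 (−1.49) and Egln1 (−0.63), oxygen-dependent prolyl hydroxylases, and Lgals3, galectin-3 (−0.96), for which no role in Sprouty turnover is claimed. The ubiquitin ligase gene Cbl was at −0.52 at 10 µM and not called, and at −0.64 and called at 5 µM, while the ubiquitin ligase genes Siah2 (−0.22) and Nedd4 (0.27) were not called, and these 3 ligase genes were named after their values were seen. Egln1 was no longer called with equal sums (−0.43) or with a pseudocount of 5 FPKM (−0.50).

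Of 15 compared receptor, ligand and RAS pathway genes, 3 rose and 3 fell, near the shares of all genes (15.7% higher and 19.1% lower), and their median was −0.02. The FGF receptors Fgfr3 (1.53) and Fgfr2 (1.10) rose, Egfr (−0.83) and Nras (−0.76) fell, and Pdgfra (−0.02) and Pdgfa (0.01) were not called. Nras was no longer called with equal sums (−0.55), and Egfr no longer with a pseudocount of 5 FPKM (−0.57).

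**Figure D5:**
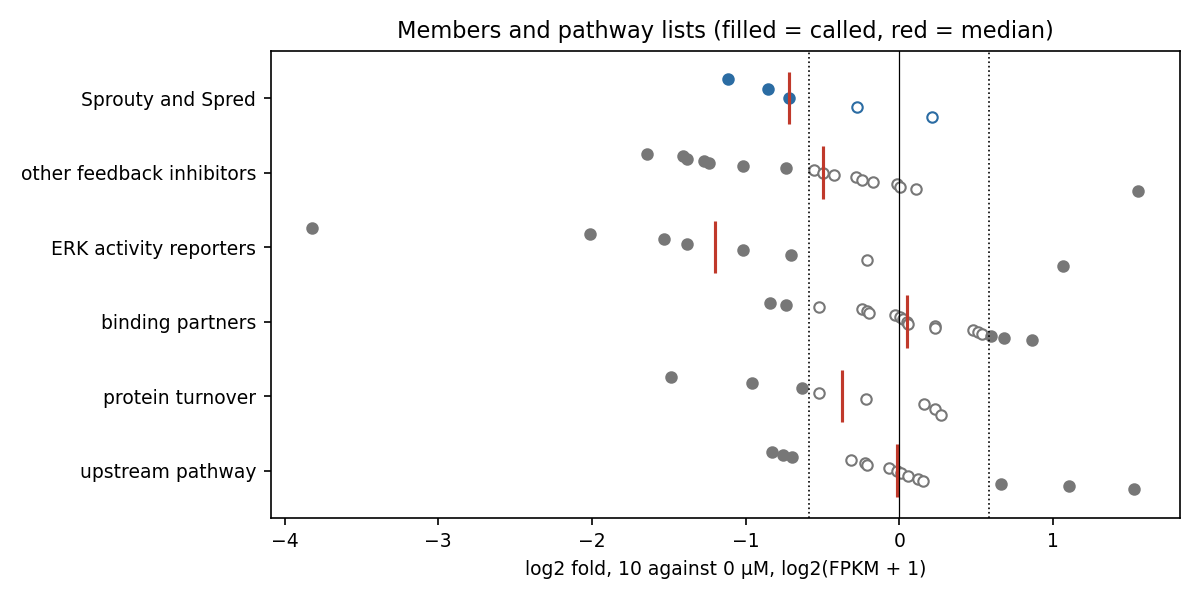
Log2 fold for 10 against 0 µM on log2(FPKM + 1) (x axis) of the members compared (blue) and of the genes compared in each pathway list (grey, y axis); filled points are called, red lines are medians and dotted lines mark 1.5-fold. The median of the ERK activity reporters (−1.20) lies below that of the members (−0.72), and those of the binding partners (0.05) and the upstream genes (−0.02) lie near 0.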

How the data were processed

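Per the labels, 6 files come from mouse glioma cells at 0, 5 and 10 µM SHP099, in lanes 6 and 7 at each dose. The values are FPKM deposited by the authors. Per the submitters' processing notes, Bowtie 0.12.2 and the build mm8 were used. However, 53270 of the 53460 gene IDs are in GENCODE M21, an annotation of GRCm38, so the build behind the FPKM is uncertain. The tool that made the FPKM, its annotation and any scaling between files are not given in the sources used here. Gene positions are therefore not given, except for RefSeq windows of GRCm38.p6.

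Files of a dose were treated as repeat runs of 1 library, as inferred from sample names that are the same up to the lane, and the same symbol's entries were summed (1 entry for each member). Means were taken on log2(FPKM + 1). Depth was recovered by fitting the number of fragments that makes low FPKM of genes with 1 transcript of 1500 to 6000 bases (GENCODE M21) whole within 0.1, after shortening each length by 240 bases. This held for 97.64% to 98.43% of the 1270 to 1404 genes used per file. The members, lists and alternatives were chosen with earlier results of these data known. Named genes are the members, Spry3, 4 reference genes, from each list up to 4 called genes whose folds at 10 against 0 µM were largest, and the 3 nearest profiles per member. Epha4, Mknk1, Nf1, Grb2, Sos1, Kit, Cbl, Siah2, Nedd4 and the cell type markers were named after their values were seen. Alternatives were pseudocounts of 0.1 and 5 FPKM, none at all (added after seeing the data), no filter, a filter of 5 FPKM, scaling by a trimmed mean, to equal sums without the outlying Snora62 or to a median fold of 0, lane files dropped in turn, lanes compared separately, a 2-fold rule and the highest entry of a symbol. Python 3.11.15, numpy 2.4.6, pandas 2.3.3, scipy 1.17.1 and matplotlib 3.10.9 were used.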

Additional observations from a re-analysis of the deposited data

How the results depend on the processing

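No paired analysis was possible because the comparisons rest on no test, each dose being 1 library. Leaving out each lane file in turn changed no member's call except that of Spred2 for 5 against 0 µM, which was called without the lane 6 file of 0 µM (−0.61), as it also was with trimmed mean scaling, with a pseudocount of 0.1 FPKM and with none (−0.61 each). With a 2-fold rule 1 member was lower for 10 against 0 µM and 0 for 5 against 0 µM. The pathway lists then had 4 higher and 10 lower for 10 against 0 µM. They had 3 higher and 8 lower for 5 against 0 µM and 0 lower for 10 against 5 µM. Of the 12567 genes compared, this rule called 733 higher and 995 lower for 10 against 0 µM. It called 652 higher and 755 lower for 5 against 0 µM, and 28 lower for 10 against 5 µM. With a pseudocount of 5 FPKM 0 members were lower for 5 against 0 µM, and the Sprouty sum was at −0.43 for 10 against 0 µM. The pathway lists then had 5 higher and 9 lower for 5 against 0 µM and 1 lower for 10 against 5 µM. Of all genes compared, 927 were higher for 5 against 0 µM and 38 lower for 10 against 5 µM. The number of all genes lower for 5 against 0 µM with this pseudocount is not given here. With equal sums the Sprouty sum (−0.50) and the Spred sum (−0.46) were not called for 10 against 0 µM. For 5 against 0 µM 1 member was lower with equal sums, where 1379 of all genes compared were lower. A filter of 5 FPKM also left 1 member lower for 5 against 0 µM. With a pseudocount of 0.1 FPKM, or none, 1 member, Spry4, was lower for 10 against 5 µM (−0.61 and −0.67). With 0.1 FPKM, 309 of all genes compared were lower in that comparison, against 170 as reported. In the lane 7 files alone the pathway lists had 5 lower for 10 against 5 µM, against 3 as reported. There 260 of all genes compared were lower. For 10 against 0 µM, Spry4 (−0.45) was no longer called with a pseudocount of 5 FPKM, nor was Spred1 (−0.51) with equal sums. The filter of 5 FPKM leaves out all 3 Sprouty members, so only the 3 Spred genes were compared under it. No called member's fold changed sign under any alternative run. Variation between cultures was not measured, and depth limits Spry1, at 5 fragments in the 10 µM library.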
